A study of Homo sapiens with 28 samples.

Results

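The genes described here are MYC with its network and the factors that build ribosomes in the nucleolus. They were chosen by function from a list of 44 gene symbols, and 37 of the 44 were measured by name among the 17687 named genes of the array table. The measured genes comprise 5 of the MYC network (MYC, MYCN, MAX, MXD1, MXI1), 5 of 5 RNA polymerase I factors, 5 of 7 proteins of small nucleolar ribonucleoproteins (snoRNPs), 5 of 5 abundant nucleolar proteins, 10 of 11 small subunit assembly factors and 7 of 11 large subunit assembly factors. The other 7 (NOP56, DKC1, WDR43, BOP1, PPAN, GNL3 and EBNA1BP2) were not measured by name here. Each measured gene was read by 1 probe set.

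MYC pairs with MAX and binds the E-box motif in promoters, where it drives transcription of genes for growth. MXD1 and MXI1 pair with MAX instead and repress the same kind of promoter. Ribosome biogenesis is the best known MYC program: RNA polymerase I transcribes the ribosomal RNA, snoRNPs modify it, and assembly factors fold, cut and export the small and large subunits. In myeloid cells MYC and ribosome production are high in proliferating progenitors and decline as the cells mature, while MXD1 is known as a gene of maturing cells.

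Expression was measured on 28 Clariom S arrays of 7 established lines of human acute myeloid leukemia (AML), 2 per line and condition. The treated cells were kept for 8 days in 1 µM Pinometostat, an inhibitor of the histone methyltransferase DOT1L, and the control cells for 8 days in DMSO 0.01%, the solvent of the drug. NOMO-1, MV4-11, THP-1 and MOLM-13 carry a rearranged MLL gene (MLL-r), while HL-60, U-937 and OCI-AML3 do not (non-MLL-r). The question was how the loss of DOT1L activity changes transcript levels in the presence and absence of MLL-r. HL-60 is known for an amplified MYC gene, and OCI-AML3 for a mutated NPM1 gene. All values below are log2 signals, so that a change of 1 is a doubling. A gene was called where its unadjusted p in limma was under 0.05 and its change in log2 signal at least 1 in size, and only called genes are said to have risen or fallen within a line. The sources do not say whether the 2 arrays of a group came from separate cultures, so the p-values measure only the spread between these arrays, which may be technical.

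Array medians ran from 5.61 to 5.76, and the 95th percentile of the negative control probe sets from 3.85 to 4.56. Among 9 myeloid markers, SPI1 (8.65 to 9.96 over the control means of the 7 lines), PTPRC (8.53 to 10.39) and CSF3R (7.02 to 9.50) lay well above that percentile in every line. The others also lay above it in every line, down to 4.59 for ITGAM in OCI-AML3. HL-60 had MPO at 12.14 but CD14 at 5.21, ITGAM at 5.06 and LYZ at 4.74. Of 10 markers of other lineages, CD3D, MS4A1 and EPCAM lay at 2.74 to 4.03, below the percentile. CD3E and HBB lay near it, at 3.78 to 4.68. CD79A (5.89 to 7.42), COL1A1 (5.88 to 6.49), KRT19 (4.67 to 5.51) and CDH5 (4.77 to 5.13) lay above it in every line. PECAM1 ran from 4.23 in HL-60 to 10.18 in NOMO-1. The control arrays of NOMO-1 lay furthest apart, with a root mean square difference over all genes of 0.671 against 0.379 to 0.62 in the other lines. The control and treated arrays with the same replicate number deviated together in every line, with r from 0.42 to 0.64 across genes.

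MYC was not called in any of the 7 lines. Its log2 signal was lower in the treated cells of 6 lines and higher in U-937. In NOMO-1 the control arrays read 9.13 and 9.06 and the treated arrays 8.63 and 8.59. These arrays did not overlap, and the difference was -0.49 ± 0.32 (SE, n = 2 per condition, limma adjusted p = 0.72). In MV4-11 the control arrays read 10.95 and 11.08 and the treated arrays 10.64 and 10.71, which gave -0.34 ± 0.27. In MOLM-13 the control arrays read 10.78 and 10.95 and the treated arrays 10.49 and 10.60, which gave -0.32 ± 0.32. In both of these lines too the treated arrays lay below the controls.

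In THP-1 the MYC arrays overlapped, at 9.62 and 9.79 in control and 9.36 and 9.70 in treated cells. OCI-AML3 read 10.85 and 10.87 in control and 10.65 and 10.74 in treated cells, without overlap. U-937 was the exception in direction, with 11.55 and 11.75 in control and 11.81 and 11.94 in treated cells. HL-60 was lower by a small margin, with 11.68 and 11.52 in control and 11.48 and 11.50 in treated cells. Averaged over the 7 lines the MYC change was -0.20 ± 0.10 (SE over lines, limma adjusted p = 0.42).

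The lines differed far more in their level of MYC than in its change. The control level ran in the order U-937 (11.65), HL-60 (11.60), MV4-11 (11.01), MOLM-13 (10.86), OCI-AML3 (10.86), THP-1 (9.71) and NOMO-1 (9.10), and the difference across the 7 lines had an adjusted p of 4.7e-06 in limma's F test. Among neighbours in this order OCI-AML3 and THP-1 alone, 1.15 apart, had an adjusted p under 0.05 (0.0074). NOMO-1 lay 2.50 below HL-60 (adjusted p = 2.8e-06) and 1.91 below MV4-11 (adjusted p = 6.6e-05). The 4 MLL-r lines averaged 1.20 less than the 3 non-MLL-r lines, with an unadjusted p of 0.044 and an adjusted p that did not pass 0.05.

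MXD1, the MAX partner that opposes MYC, rose in NOMO-1. Its control arrays there read 8.65 and 7.99 and its treated arrays 10.43 and 10.06. All treated values lay above all control values, the difference was 1.93 ± 0.37, and the treated cells had 3.80 times the control signal (limma adjusted p = 0.032). Across all genes 4.75% were called higher in NOMO-1. MXD1 was the one measured gene of the list called higher in any line.

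In MV4-11 MXD1 read 7.34 and 6.83 in control and 8.08 and 7.64 in treated cells, again without overlap. The difference of 0.77 ± 0.31 was below the size threshold for a call (adjusted p = 0.43). The changes in the remaining lines were 0.43 in MOLM-13, 0.23 in THP-1, -0.09 in OCI-AML3, 0.20 in U-937 and 0.36 in HL-60. NOMO-1 also had the highest control level of MXD1 (8.32) and HL-60 the lowest (6.61), with an adjusted p of 0.0087 across lines.

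MXI1, the related repressor, was higher without overlap in THP-1 (7.49 and 6.93 in control, 7.97 and 8.12 in treated cells) and in NOMO-1 (8.06 and 7.75 in control, 8.74 and 8.67 in treated cells). Neither was a call, since the differences of 0.84 ± 0.31 and 0.80 ± 0.33 were under 1. In MV4-11 MXI1 was also higher without overlap (9.24 and 9.02 in control, 9.37 and 9.38 in treated cells) and not called. The MXI1 difference in NOMO-1, with the replicate number as a block, had an adjusted p of 0.024. MAX, the common partner, differed by -0.30 to 0.32 and was called in no line. MYCN lay at the level of the negative controls, with control means of 3.77 to 4.18, and it was called in no line.

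**Figure D1:**
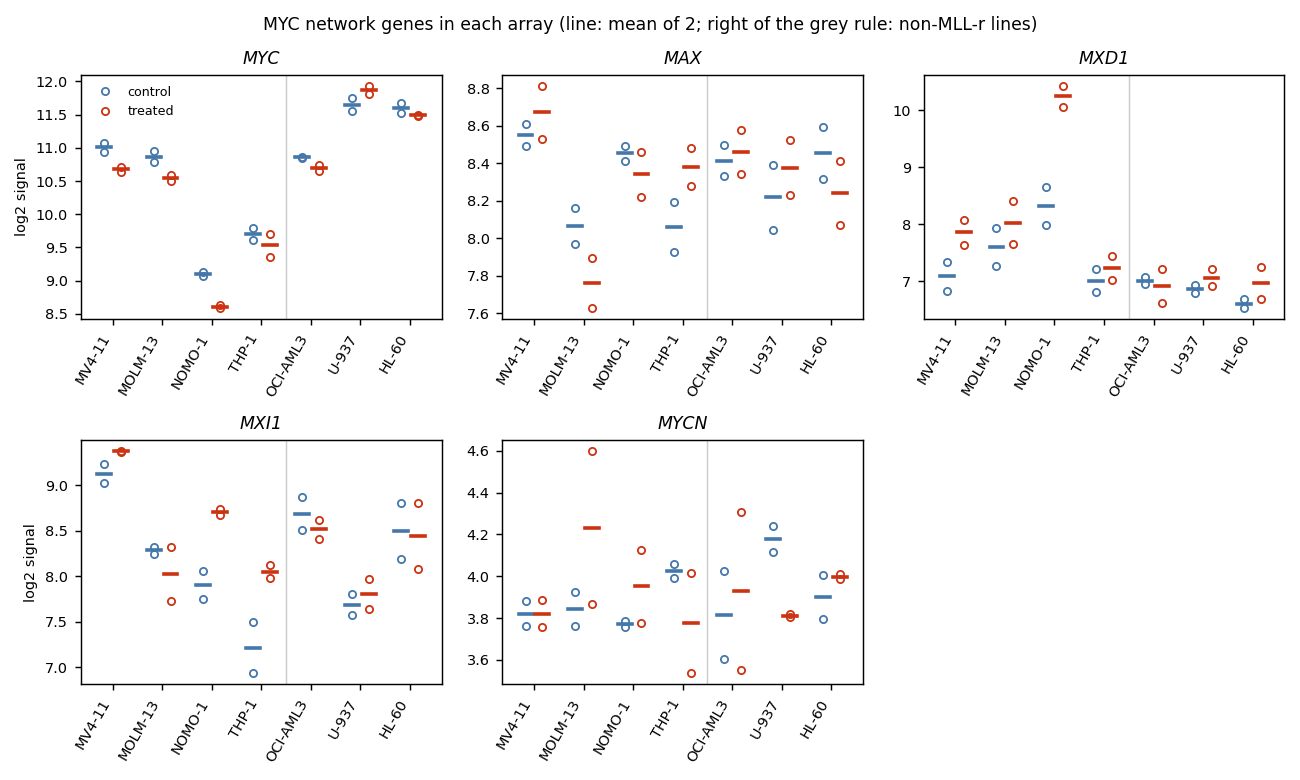
Log2 signal (vertical axis) of MYC, MAX, MXD1, MXI1 and MYCN on each of the 28 arrays, by cell line (horizontal axis), with control arrays in blue, treated arrays in red and a short line for the mean of 2. MYC differs between lines by up to 2.55 and within a line by 0.49 at most, and MXD1 in treated NOMO-1 cells (10.06 and 10.43) stands above all other MXD1 values.

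The binding motif of MYC and MAX was looked up in the promoters of these genes as sequence context for the changes that follow. RefSeq promoters of 300 bases (GRCh38.p14) were matched for 32 of the 37 measured genes. The E-box CACGTG, which is its own reverse complement, so that both strands are searched at once, was present for 13 of the 32 (40.6%). It was present for 1538 of the 14250 tested genes that have a promoter in the table (10.8%). Counted per promoter, it was present in 13 of the 42 promoters of the measured genes (31.0%), and in 7.26% of all promoters of that length. Windows of 30 bases are shown for 5 genes, 3 from genes that were called (LYAR, GAR1 and MRTO4) and 2 from genes that were not (FBL and UTP20), with the E-box in capitals. They lie at chr4:4290068-4290097 on the minus strand (LYAR), chr4:109815781-109815810 on the plus strand (GAR1), chr1:19251807-19251836 on the plus strand (MRTO4), chr19:39846356-39846385 on the minus strand (FBL) and chr12:101280083-101280112 on the plus strand (UTP20), and each is written 5′ to 3′ along the gene.
LYAR: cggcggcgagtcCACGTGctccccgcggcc
GAR1: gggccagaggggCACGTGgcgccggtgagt
MRTO4: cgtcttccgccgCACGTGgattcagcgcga
FBL: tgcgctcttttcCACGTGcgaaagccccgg
UTP20: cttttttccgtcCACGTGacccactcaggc

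The order of genes with and without the motif differed between lines. In NOMO-1 the median change was -0.61 for the 13 nucleolar genes with an E-box and -0.80 for the 15 with a promoter that lacked it. In MV4-11 the medians were -0.62 and -0.37 in the same order, in THP-1 -0.32 and -0.21, and in HL-60 0.09 and -0.03. NOP16 and NOB1, called lower in NOMO-1, had no CACGTG in this window. Of the other gene lists, MYC targets outside the nucleolus held the motif most often, with 13 of 23 (56.5%). It was present for 24 of 68 further ribosome assembly factors (35.3%), 1 of 11 further RNA polymerase I factors (9.09%) and 3 of 42 ribosomal protein genes (7.14%).

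Nucleolar genes fell mainly in NOMO-1. Of the 37 measured genes, 8 were called lower there, where 3.12% of all genes were. They were NOP16, LYAR, NOB1, DDX10, MRTO4, NOLC1, NIP7 and GAR1, and they came from all nucleolar roles other than RNA polymerase I. In MV4-11 LYAR alone was called lower, where 1.52% of all genes were. No gene of the list was called in the other 5 lines, where few genes were called lower at all: 0.0848% in MOLM-13, 0.718% in THP-1, 0.537% in OCI-AML3, 0.113% in U-937 and 0.175% in HL-60. With no size threshold, an unadjusted p under 0.05 was reached by 11 lower genes in NOMO-1 (5.17% of all genes) and 6 in MV4-11 (4.93%). At an adjusted p under 0.05, NOMO-1 had 3 genes lower (NOP16, LYAR, NOB1; 0.441% of all genes) and MXD1 higher (1.68%). With the replicate block these became 16 lower (7.61%) and 2 higher (7.85%), and LYAR in MV4-11 was added (2.71%). The genes that the block added in NOMO-1 were DDX10, NOLC1, MRTO4, NIP7, GAR1, WDR12, BYSL, HEATR1, RRS1, NOP58, POLR1B, NPM1, NCL and, higher, MXI1. The set of genes called in NOMO-1 changed when single arrays were left out. A condition then had 1 array, so these calls are not counted here. The median change of the 37 genes in NOMO-1 was -0.87 without the second control array and -0.43 without the second treated array.

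The RNA polymerase I factors were called in no line. POLR1B, a catalytic subunit, had the lowest values of the group, with -0.81 ± 0.41 in NOMO-1, -0.68 ± 0.27 in MV4-11 and -0.49 in OCI-AML3. In NOMO-1 its control arrays read 6.02 and 5.01 and its treated arrays 4.92 and 4.49, so that the groups did not overlap but the control arrays were as far apart as the difference. With the replicate block its adjusted p there was 0.028. POLR1C, a subunit shared with RNA polymerase III, differed by -0.69 in NOMO-1 and -0.57 in MV4-11.

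POLR1A, the largest subunit, differed by -0.59 in NOMO-1 and by -0.43 to 0.12 elsewhere, and its arrays overlapped in all 7 lines. Replicates of POLR1A differed by about as much as lines, for example 7.39 and 6.36 in NOMO-1 control cells and 8.16 and 6.99 in HL-60 control cells. UBTF, which opens the ribosomal DNA for transcription, differed by -0.37 in MV4-11, with control arrays at 8.92 and 8.91 and treated arrays at 8.45 and 8.64. In MOLM-13 it was higher by 0.29, and in the remaining lines it differed by -0.22 to 0.12. RRN3, the initiation factor that answers to growth signals, ran the other way, with 0.60 ± 0.38 in MV4-11 and 0.55 ± 0.47 in NOMO-1, and neither passed the test.

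Among the snoRNP proteins GAR1, of the pseudouridylation complex, fell in NOMO-1. Its control arrays read 7.46 and 7.30 and its treated arrays 6.43 and 6.22, without overlap. The change was -1.05 ± 0.33 (adjusted p = 0.20, and 0.0033 with the replicate block), and the call was lost without the first control array (-0.98) or the second treated array (-0.95). In MV4-11 it was -0.74 ± 0.28, with control arrays at 7.62 and 7.44 and treated arrays at 6.90 and 6.69. FBL, the methyltransferase of the other snoRNP class, read 9.36 and 9.47 in control and 8.95 and 8.67 in treated NOMO-1 cells. This difference of -0.61 ± 0.33 was not called, and FBL differed by -0.25 to 0.13 in the other 6 lines. NOP58, its partner, differed by -0.80 in NOMO-1 (limma adjusted p = 0.025 with the replicate block). RRP9, of the U3 snoRNP, differed by -0.59 in MV4-11, -0.56 in NOMO-1 and -0.58 in THP-1, and NHP2 by -0.44 in NOMO-1.

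LYAR, a zinc finger protein of the nucleolus, fell in both NOMO-1 and MV4-11. In NOMO-1 the control arrays read 8.38 and 7.99 and the treated arrays 6.74 and 6.07. The change was -1.78 ± 0.37 and the treated signal 0.291 times the control signal (adjusted p = 0.046). In MV4-11 the control arrays read 7.92 and 7.60 and the treated arrays 6.97 and 6.42, also without overlap. The change there was -1.06 ± 0.31, with an adjusted p of 0.20 and of 0.020 with the replicate block. The MV4-11 call was lost without the first control array (-0.90) or without the second treated array (-0.78). In the other lines LYAR differed by -0.33 to 0.16 and the arrays overlapped. NOLC1, a chaperone of snoRNPs, read 8.78 and 9.00 in control and 7.63 and 7.37 in treated NOMO-1 cells. It fell there by 1.39 ± 0.33 (adjusted p = 0.081).

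Of the most abundant nucleolar proteins, NCL (nucleolin) read 10.54 and 10.70 in control and 9.96 and 9.71 in treated NOMO-1 cells. The difference of -0.78 ± 0.33 was under the size threshold, and in MV4-11 it was -0.30, with control arrays at 10.50 and 10.45 and treated arrays at 10.23 and 10.13. NPM1 (nucleophosmin) read 10.28 and 10.01 in control and 9.75 and 8.94 in treated NOMO-1 cells. This gave -0.80 ± 0.38, and in the other lines NPM1 differed by -0.34 to 0.32. With the replicate block the NOMO-1 differences of NCL and NPM1 had adjusted p of 0.030 and 0.029. The RNA helicase DDX21 differed by -0.60 in NOMO-1 and -0.46 in MV4-11.

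All 10 small subunit factors had a value below 0 in each of MV4-11 (52.5% of all genes), NOMO-1 (51.5%), THP-1 (51%) and OCI-AML3 (54.4%). Of the 10, 2 were called, both lower in NOMO-1 (3.12% of all genes). NOB1, the nuclease that makes the last cut in the small subunit RNA, read 8.60 and 8.77 in control and 7.20 and 6.96 in treated NOMO-1 cells. It fell by 1.60 ± 0.33 there (adjusted p = 0.045), and its treated values were the lowest of NOB1 on all 28 arrays. In the other 6 lines NOB1 differed by -0.35 to 0.11. The RNA helicase DDX10 read 6.04 and 5.86 in control and 4.53 and 4.27 in treated NOMO-1 cells, and fell by 1.55 ± 0.33 (adjusted p = 0.052). Its treated values lay near the negative control percentiles of 4.09 and 4.05 on those arrays. In MOLM-13 DDX10 read 6.65 and 6.23 in control and 5.97 and 5.41 in treated cells, a difference of -0.75 that was not called.

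UTP20, UTP4 and HEATR1 belong to the early small subunit processome. UTP20 was lowest in MV4-11 (-0.85 ± 0.38), and HEATR1 in NOMO-1 (-0.87 ± 0.58). In NOMO-1 the control arrays of UTP20 read 6.02 and 4.06, and the second value lay under the negative control percentile of its array. HEATR1 read 8.79 and 7.18 in control and 7.74 and 6.50 in treated cells, so that the first array was the higher in both conditions, and with the replicate block its adjusted p was 0.016. BYSL, PNO1, TSR1 and NOP14 differed by -0.96 to -0.38 in NOMO-1, the lowest being BYSL (adjusted p = 0.011 with the block), and by -0.63 to -0.21 in MV4-11. RRP12, which helps export the subunit, stood apart in MOLM-13 and HL-60, where it was higher by 0.45 and 0.44.

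The large subunit factors held the lowest group median in NOMO-1, at -1.07, and 3 of the 7 were called lower there (3.12% of all genes). NOP16 had the lowest change of the whole list: its control arrays read 8.10 and 8.36 and its treated arrays 6.73 and 5.90. It fell by 1.92 ± 0.38, to 0.265 times the control signal (adjusted p = 0.038). In THP-1 NOP16 read 9.13 and 8.59 in control and 8.49 and 8.11 in treated cells, and in the other lines it differed by -0.39 to 0.19.

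MRTO4, which holds the place of the ribosomal stalk during assembly, read 6.64 and 6.56 in control and 5.25 and 5.13 in treated NOMO-1 cells and fell by 1.41 ± 0.33 (adjusted p = 0.071). Its value was below 0 in all 7 lines, and its arrays did not overlap in 6 of them. The differences were -0.73 ± 0.31 in THP-1 and -0.76 ± 0.28 in MV4-11. MOLM-13 differed by -0.28, with overlapping arrays. NIP7, another assembly factor, read 9.32 and 8.98 in control and 8.21 and 7.54 in treated NOMO-1 cells and fell by 1.27 ± 0.37 (adjusted p = 0.16). Without the second treated array it was -0.94 and no longer called.

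PES1 and WDR12 act in the same complex. WDR12 had a difference of -1.07 ± 0.57 in NOMO-1 that was not called, since its control arrays read 7.35 and 5.99 and its treated arrays 6.32 and 4.88. With the replicate block it was called, with an adjusted p of 0.0029. PES1 differed by -0.66 in NOMO-1, -0.62 in MV4-11 and -0.51 in THP-1. RRS1 differed by -0.84 ± 0.33 in NOMO-1 (adjusted p = 0.018 with the replicate block) and by 0.54 in HL-60. NOP2, an RNA methyltransferase, was the exception, with 0.21 in NOMO-1 and 0.14 in MV4-11 but -0.52 in THP-1 and -0.51 in OCI-AML3. Its NOMO-1 control arrays read 4.27 and 4.22, near the negative control percentiles of 3.95 and 4.11 on those arrays.

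**Figure D2:**
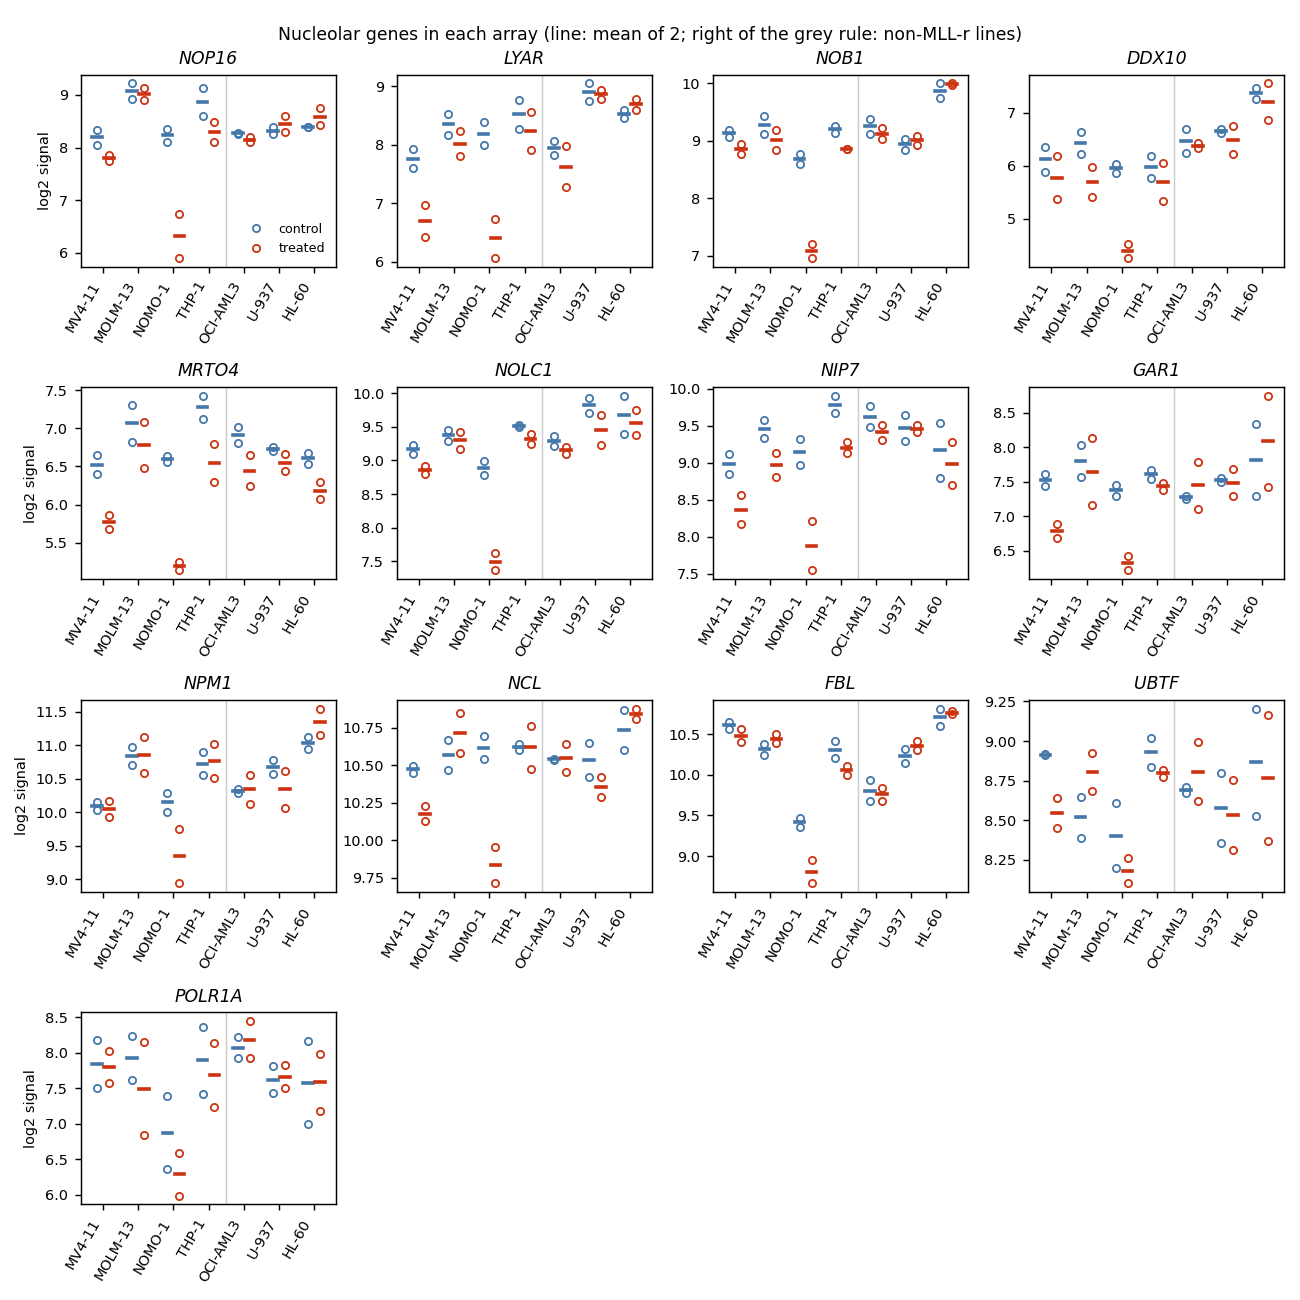
Log2 signal (vertical axes, each with its own range) of the 8 nucleolar genes called in NOMO-1 and of NPM1, NCL, FBL, UBTF and POLR1A on all 28 arrays, by cell line, with control arrays in blue, treated arrays in red and a short line for the mean of 2. The treated NOMO-1 arrays of NOP16 (6.73 and 5.90) and NOB1 (7.20 and 6.96) lie below every other array of the same gene.

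Proliferation and cell type markers were read on the same arrays. Of 10 proliferation markers, CCNB1 and TYMS were called lower in NOMO-1 (3.12% of all genes were), 8 had a value below 0, and MKI67 (0.29) and RRM2 (0.11) lay above 0. The mean log2 signal of the list was 9.27 and 8.79 on the control and 8.72 and 8.41 on the treated arrays. Of 9 myeloid markers 4 were called higher (ANPEP, CD14, CSF1R and PTPRC), where 4.75% of all genes were, and the other 5 lay 0.12 to 0.83 above 0 without a call. The mean of the 9 was 9.40 and 9.25 on the control arrays and 10.54 on both treated arrays. None of 10 markers of other lineages was called in NOMO-1, with means of 4.92 to 5.14. In MV4-11 3 of the 10 proliferation markers were called lower (CCNB1, CDK1 and RRM2), where 1.52% of all genes were. All 10 lay below 0 there (52.5% of all genes), with a median of -0.89 against -0.37 in NOMO-1. Their means in MV4-11 were 9.44 and 9.10 on the control and 8.50 and 8.18 on the treated arrays. The part of these markers in the nucleolar changes was not tested. In cultures measured in bulk, a loss of cells with high nucleolar expression and less RNA per cell cannot be told apart.

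Over the whole list the direction was lower in the MLL-r lines and in OCI-AML3, and split in U-937 and HL-60. The median change of the 37 genes was -0.61 in NOMO-1, -0.37 in MV4-11, -0.24 in both MOLM-13 and THP-1, -0.13 in OCI-AML3, 0.03 in U-937 and 0.06 in HL-60, while the median over all genes lay between -0.03 and 0.00 in every line. Values below 0 were found for 32 genes in NOMO-1 (51.5% of all genes), 30 in MV4-11 (52.5%), 27 in MOLM-13 (53.9%), 29 in THP-1 (51%), 28 in OCI-AML3 (54.4%), 18 in U-937 (49.8%) and 15 in HL-60 (49.9%). The treated arrays lay below both control arrays for 23 of the 37 genes in MV4-11 (19.7% of all genes), 20 in NOMO-1 (20%) and 15 in THP-1 (16.8%). Such counts were lower elsewhere, at 8 in MOLM-13 (11.7%), 7 in OCI-AML3 (15.4%), 6 in U-937 (14.2%) and 2 in HL-60 (11.3%). The medians moved with single arrays in all 7 lines. Leaving out 1 array of a condition gave -0.90 to -0.43 in NOMO-1 and -0.45 to -0.25 in MV4-11, and U-937 reached -0.05. Without the second treated array of each line the median of MOLM-13 was 0.04 and that of THP-1 -0.11. OCI-AML3 had -0.03 either without that array or without the first control array. Between arrays of the same replicate number the median was below 0 in both pairs of MOLM-13, THP-1 and OCI-AML3. The values were -0.11 and -0.33 in MOLM-13, -0.21 in both pairs of THP-1, and -0.12 and -0.13 in OCI-AML3.

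**Figure D3:**
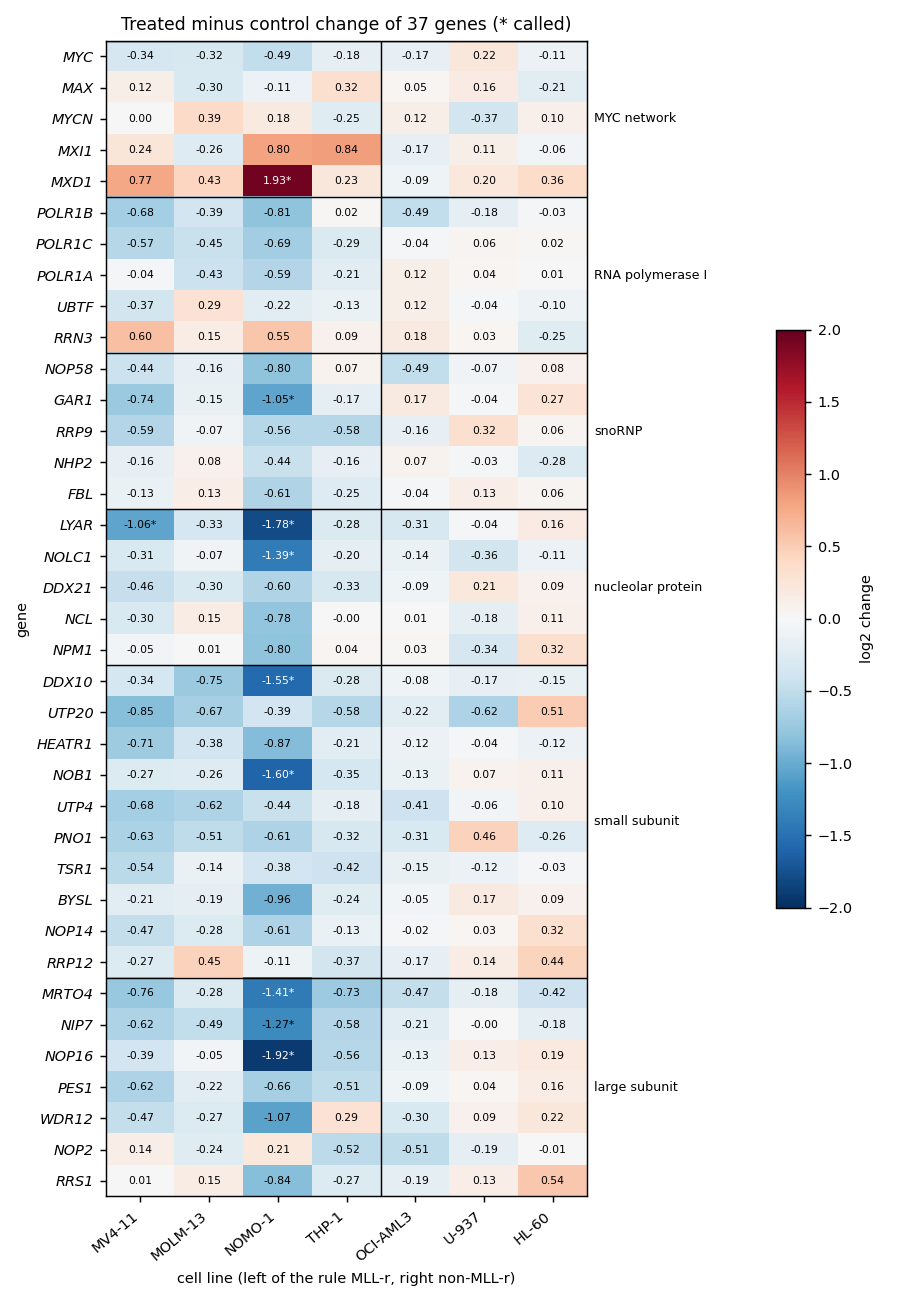
Change in log2 signal (treated minus control, colour and printed value) of the 37 measured genes (rows, by role) in the 7 lines (columns, MLL-r left and non-MLL-r right of the rule), with a star for genes called. NOMO-1 holds 9 of the 10 stars and MV4-11 the other (LYAR, -1.06), and the columns of U-937 and HL-60 are mixed in sign.

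Averaged over lines, with each line counted once, 31 of the 37 genes were below 0, against 53.0% of all genes. At an unadjusted p under 0.05, 13 were lower (7.23% of all genes) and MXD1 was higher (5.78%). At an adjusted p under 0.05 there were none, on the list or among all 17687 genes, in limma on the 7 differences, where 2301 genes had an unadjusted p under 0.05. MRTO4 had the lowest mean change (-0.61 ± 0.14, unadjusted p = 0.0010, adjusted p = 0.19), followed by LYAR (-0.52 ± 0.20), NIP7 (-0.48 ± 0.14) and DDX10 (-0.48 ± 0.16). Values below 0 in all 7 lines were found for 6 genes (MRTO4, NIP7, DDX10, NOLC1, HEATR1 and TSR1), against 2.75% of all genes. Without MV4-11 the 13 genes became 7.

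The change in the 4 MLL-r lines was compared with that in the 3 non-MLL-r lines. The median difference over the list was -0.37, and 8 genes were lower in MLL-r lines at an unadjusted p under 0.05 (3.14% of all genes), namely POLR1C, PES1, DDX21, NIP7, GAR1, NOP14, RRP9 and LYAR. Their differences ran from -0.48 for NOP14 to -0.80 for LYAR, and none passed at an adjusted p under 0.05, as no gene of the array did. The 8 genes became 4 without NOMO-1, 4 without HL-60, 5 without U-937 and 2 without the first replicate of every group.

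A test of the difference between the lines themselves was passed by NOP16 (adjusted p = 0.014) and NOB1 (adjusted p = 0.015), where 3.33% of all genes passed limma's F test of the line by treatment interaction. With the replicate block 10 genes passed (10.7%), which added LYAR, MXD1, DDX10, NOLC1, NIP7, WDR12, MRTO4 and GAR1. Without NOMO-1 no gene of the list passed. NOMO-1 had the lowest change of the 7 lines for 24 of the 37 genes (64.9%), against 20.4% of all genes.

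NOMO-1 also had low control levels, read on the same control arrays that enter its changes. It had the lowest mean for 18 of the 37 genes, against 19% of all genes, and these included all 5 RNA polymerase I factors. For 10 of the 37 genes the control level differed across lines at an adjusted p under 0.05. This share was no higher than that of all genes (29.8%). The 10 were MYC, MXD1, MXI1, POLR1C, FBL, NPM1, NOB1, DDX10, NOP2 and RRS1. HL-60 had the highest control level of FBL (10.70, against 9.42 in NOMO-1), NPM1, NOB1 and DDX10 and the lowest of RRS1. POLR1C was 9.14 in U-937 and 7.48 in NOMO-1. In the contrast of MLL-r with non-MLL-r lines only MYC and DDX10 differed at an unadjusted p under 0.05 (3.15% of all genes were lower), and none after adjustment, and these 2 genes became 1 without the first and 4 without the second replicates.

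**Figure D4:**
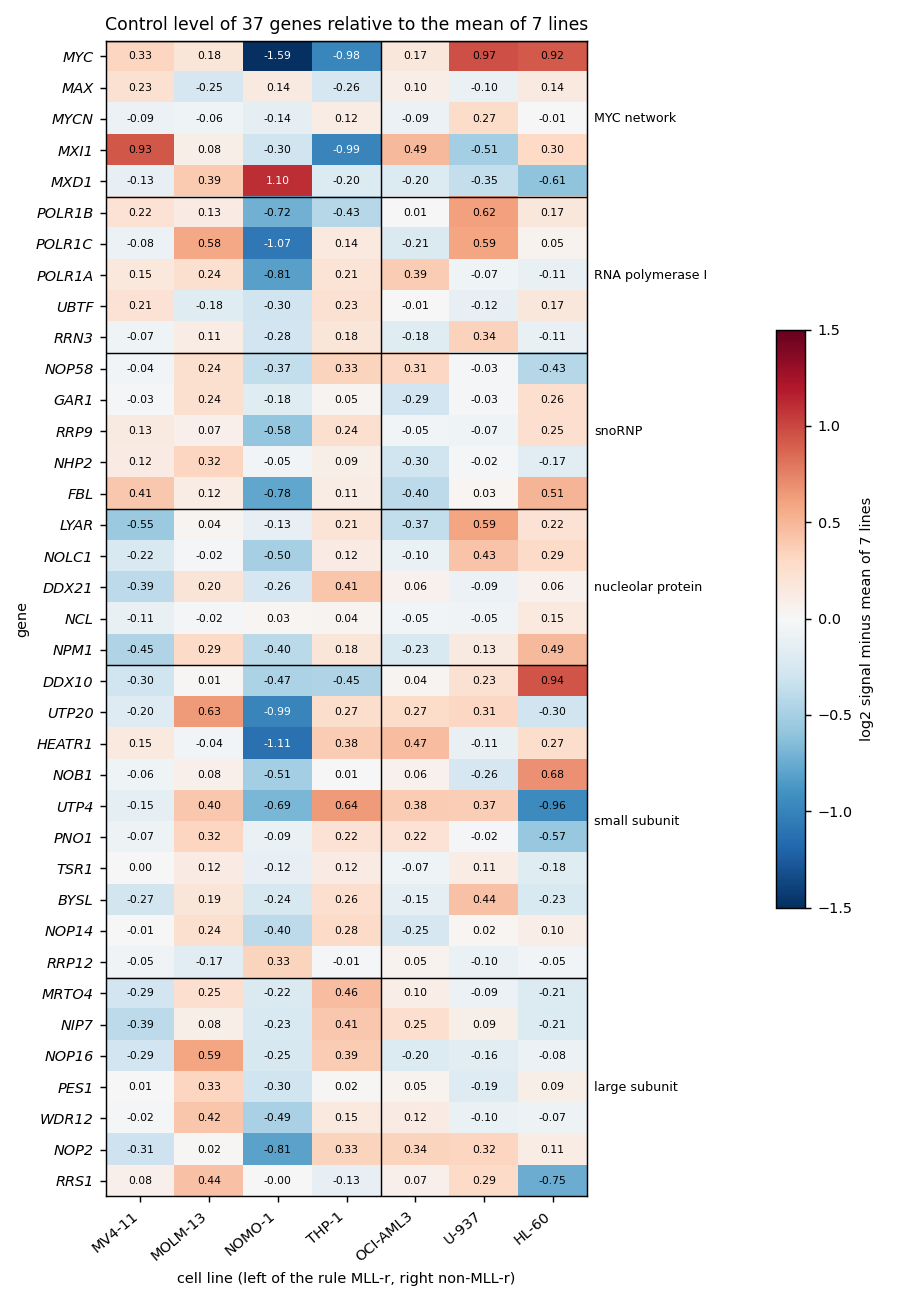
Control log2 signal of each of the 37 genes relative to its own mean over the 7 lines (colour and printed value), with genes in rows by role and lines in columns (MLL-r left and non-MLL-r right of the rule). In the NOMO-1 column MYC is 1.59 below its mean and MXD1 1.10 above its mean.

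Across the 7 lines the median change of the 32 nucleolar genes went with the change of MYC (Pearson's r = 0.80, Spearman's rho = 0.93) and ran against that of MXD1 (r = -0.86, rho = -0.68). It also went with the mean change of the proliferation markers (r = 0.67, rho = 0.57) and with the control level of MYC, which is read on arrays that enter the changes (r = 0.81, rho = 0.71). These values describe 7 points that share arrays normalized together, and NOMO-1 is the extreme point in MYC, MXD1 and the nucleolar genes.

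Other genes of the pathway were counted in the same way. Of 81 further assembly factors, 78 had a mean change below 0, against 53.0% of all genes, with a median of -0.23. In NOMO-1 12 of them were called lower (3.12% of all genes) and NMD3, an export adaptor of the large subunit, higher (4.75%). WDR74 (-1.49), IMP3 (-1.43) and NAT10 (-1.01) were among those that fell in NOMO-1, and RRP7A fell in THP-1 (-1.02), where 0.718% of all genes were called lower. Of 13 further RNA polymerase I and ribosomal DNA factors, POLR1F (-1.81) and POLR1H (-1.11) fell in NOMO-1, against the same 3.12%. None of 11 further MYC and MAX network genes was called in any line. NMD3, RRP7A and POLR1H are named here after their values were seen.

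The ribosomal proteins, the structural parts of the ribosome, were counted beside the assembly factors. None of the 46 measured by name was called in any line. In MV4-11 all 46 had a value above 0, with a median of 0.25, where 52.5% of all genes lay below 0. In NOMO-1 41 of 46 had a value below 0 (51.5% of all genes), with a median of -0.27. Over the 7 lines the median of their mean change was -0.01, against -0.25 for the 32 nucleolar genes of the list.

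**Figure D5:**
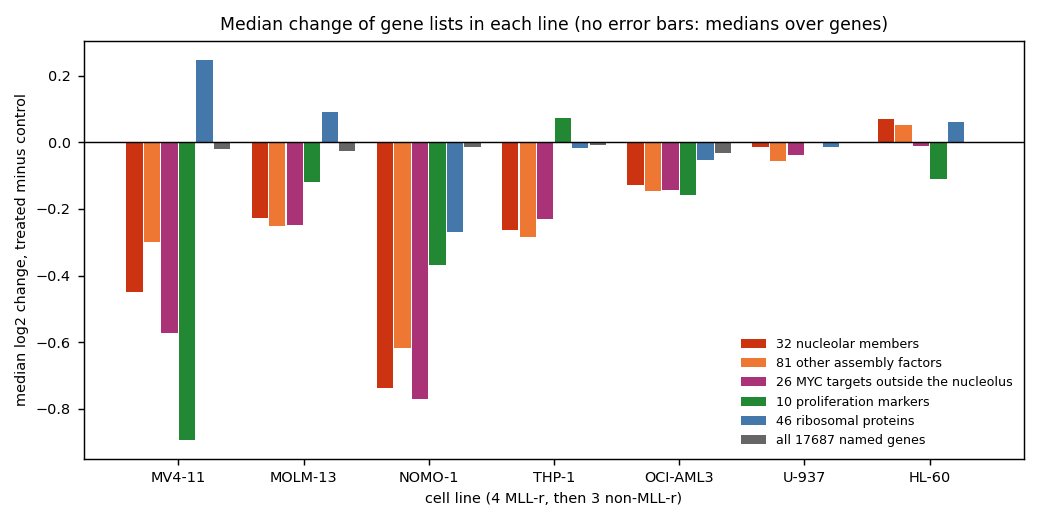
Median change in log2 signal (treated minus control, vertical axis) of 5 gene lists and of all 17687 named genes in each of the 7 lines; bars are medians over genes and carry no error. The 32 nucleolar genes and the other assembly factors are lowest in NOMO-1 (-0.74 and -0.62), while the 46 ribosomal proteins are above 0 in MV4-11 (0.25) and below 0 in NOMO-1 (-0.27).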

How the data were processed

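Total RNA was labelled with biotin and hybridized to 1-channel Clariom S arrays. The deposited values are log2 signals per probe set, which the authors made with RMA (background correction, quantile normalization, summary per probe set) in R 3.6.1 per the labels. No source used here states a filter before deposit. The table holds 27189 entries, of which 5741 array controls were dropped. Among the remaining 21448 probe sets, 17709 carry 1 gene symbol in the platform annotation and 3739 none. Averaging over probe sets for 20 genes left 17687 genes.

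For each line limma 3.58.1 (lmFit, eBayes, R 4.3.3) compared 2 treated with 2 control arrays over all genes, with Benjamini-Hochberg adjustment over all of them and no filter. Mean change, MLL-r contrast (4 against 3 lines), line by treatment interaction and control levels were fitted likewise, the first 2 on the 7 line differences. The interaction test assumes the same spread in every line. The fits were tested on simulated data in which the noise of each array was independent. Those data lack the joint deviation of same-numbered arrays and cannot decide whether to block on replicate number. The study describes a paired comparison. The main fit had no block, and since same-numbered arrays deviated together in all 7 lines (r 0.42 to 0.64), values from the fit blocked on replicate number accompany counts and genes that pass an adjusted p under 0.05 by it alone.

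The genes and lists were chosen with earlier results of these data known. All 44 listed genes are accounted for. Values on every array are given, in the text or plotted, for the 5 MYC network genes, for called genes and for NPM1, NCL, FBL, UBTF and POLR1A, and from other lists the 3 genes with the largest mean change are eligible. Alternatives were the block, a single fit of 28 arrays, a filter on low signal, median centring, an intensity trend, single probe sets, no size threshold, and leaving out replicates and lines. No depth applies to arrays, whose number limits the precision. Sequences are from the RefSeq promoter table (GRCh38.p14).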

Additional observations from a re-analysis of the deposited data

Results flagged for a closer look

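For each of the 37 genes the change in log2 signal and the control level were searched over the 7 lines for a line far from the others, 74 groups in all, of which chance picks about 1 in 20. In 9 groups a line stood apart. The search was not made over all genes, so no share of all genes can be set beside this count. Over all genes the change varied most in NOMO-1, with an SD of 0.637 against 0.262 to 0.468 in the other lines. For 5 changes this line was NOMO-1: MXD1 (1.93), NOLC1 (-1.39), BYSL (-0.96), NOB1 (-1.60) and NOP16 (-1.92). For PNO1 it was U-937, with a change of 0.46. For 3 control levels it was again NOMO-1, at 6.87 for POLR1A, 5.81 for RRP9 and 7.99 for HEATR1. A difference of the change between lines passed limma's F test of the line by treatment interaction for NOP16 (adjusted p = 0.0138) and NOB1 (adjusted p = 0.0148).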

How the results depend on the processing

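Without the replicate block the genes at an adjusted p under 0.05 numbered 4 in NOMO-1 and 0 in the other 6 lines; with the block they numbered 18 and 1, and 10 in place of 2 for the interaction test. A single fit of all 28 arrays gave 11 in NOMO-1 and a filter on low signal 2. The filter also moved the medians to -0.39 in MV4-11, -0.66 in NOMO-1 and -0.21 in THP-1, and centring arrays on their median moved them to -0.40 in MV4-11, -0.25 in THP-1 and -0.16 in OCI-AML3. Without a size threshold 18 calls were lower and 4 higher over the 7 lines, with 6 lower in MV4-11, in place of 9, 1 and 1. Without NOMO-1 (chosen after seeing the data for the first) 1 lower call was left and 0 genes in the interaction test. Leaving out 1 replicate of a condition gave 6 to 17 lower calls in NOMO-1, 0 to 4 in MV4-11, 6 to 23 lower and 1 to 5 higher over all lines, and at an adjusted p under 0.05 1 to 10 genes in NOMO-1 and 0 to 1 elsewhere. The medians then ran from -0.45 to -0.25 in MV4-11, -0.42 to 0.0428 in MOLM-13, -0.90 to -0.43 in NOMO-1, -0.34 to -0.11 in THP-1, -0.20 to -0.0263 in OCI-AML3, -0.0535 to 0.0490 in U-937 and 0.0217 to 0.0915 in HL-60. Leaving out lines or replicate numbers gave -0.28 to -0.14 for the median mean change with 7 to 15 genes lower, -0.46 to -0.26 for the MLL-r contrast with 2 to 11 genes lower, and 1 to 4 genes for the control contrast. MXD1 in OCI-AML3 changed sign without the second treated array (0.20). For the single fit, the filter and the fits that left out lines or replicates, the share of all genes was not counted. No cause was tested.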

Other observations

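MYC target genes outside the nucleolus had calls in NOMO-1 and MV4-11. Of 26 measured, 8 were called lower in NOMO-1 (3.12% of all genes) and 6 in MV4-11 (1.52%), and CDC25A, PPAT and HSPE1 were called in both. CDK4, the cell cycle kinase, fell in NOMO-1 by 1.61 ± 0.39. PPAT, the entry enzyme of purine synthesis, fell by 1.39 ± 0.46 in NOMO-1 and by 1.09 ± 0.41 in MV4-11, and the mitochondrial co-chaperonin gene HSPE1 by 1.49 ± 0.37 and 1.02 ± 0.31. In MV4-11 the purine enzymes PAICS (-1.31) and GART (-1.26) and lactate dehydrogenase LDHA (-1.31) were called too, while in NOMO-1 IMPDH2 (-1.35) and ATIC (-1.07) were. NAMPT, of the NAD salvage pathway, ran the other way in NOMO-1 and rose by 1.85 ± 0.34 (adjusted p = 0.028). The single genes other than CDK4, PPAT and HSPE1 are named after their values were seen. None of these calls in MV4-11 had an adjusted p under 0.05 without the replicate block, and 8 genes of the list did with it.

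Myeloid markers were called higher in 6 lines, 4 of which had no call in the nucleolar list, and none was called lower. Of 9 measured, 3 were called higher in MV4-11 (2.39% of all genes), 2 in MOLM-13 (0.859%), 4 in NOMO-1 (4.75%), 4 in THP-1 (1.72%), 4 in OCI-AML3 (1.9%), 3 in U-937 (0.3%) and 0 in HL-60 (0.26%). Among the markers of other lineages PECAM1 was called higher in MV4-11 (1.38), THP-1 (1.14), OCI-AML3 (1.96) and U-937 (1.36), against the same shares. LYZ, the lysozyme gene, was higher by 4.05 in U-937, where the median change of the 32 nucleolar genes was -0.01 and CSF1R (-0.41), MPO (-0.15) and ANPEP (-0.09) lay below 0. In OCI-AML3 CD14 was higher by 2.15, while SPI1 (-0.39) and CSF3R (-0.37) lay below 0. The nucleolar median in HL-60 was 0.07.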
